A study of Homo sapiens with 8 samples.

Results

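The endoplasmic reticulum (ER) chaperones, folding enzymes and ERAD genes were followed as a list of 45 genes in 4 human prostate cancer cell lines. The list was set by name: luminal chaperones of the Hsp70 and Hsp90 families with their cofactors, J-domain proteins, protein disulfide isomerases, the calnexin cycle, ER-associated degradation (ERAD), translocation and glycosylation, ER exit and retrieval, and the stress sensors with their transcription factors. Of the 45, 40 had a probe set with 1 gene symbol and entered the tests, among 22357 such genes in the table and 16767 that passed the filter on low signal. All 40 passed that filter. HSP90B1, EDEM2 and OSTC had only probe sets that also name another gene and are described separately, and TXNDC5 and KDELR2 had no probe set named here. The list and the other gene lists used below were chosen with earlier results of these data known. Their shares beside all genes are therefore descriptions and not tests. Where a gene had several probe sets, the one with the highest mean signal over the 8 arrays was taken.

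C4-2B, DU145, PC3 and VCaP cells were transfected with siRNA against DNAPK or with non-targeting siRNA and harvested after 48 hours, as 1 array per siRNA in each line, 8 arrays in all. DNAPK (DNA-dependent protein kinase) repairs double-strand breaks by end joining, and its catalytic subunit is the product of PRKDC. C4-2B derives from LNCaP cells. VCaP, from a metastasis to a vertebra, has a fusion of TMPRSS2 with ERG. DU145 was taken from a brain metastasis and PC3 from bone. Per the labels, C4-2B and PC3 were grown in RPMI1640 and DU145 and VCaP in DMEM, so the effects of line and medium cannot be told apart. The submitters' aim was to find pathways linked to DNAPK, and no array of untransfected cells was among the 8. Values are log2 signals of Affymetrix arrays after RMA (robust multi-array average), and every difference is DNAPK siRNA minus non-targeting siRNA on that scale, where 1 stands for a change of 2-fold. Signals of different probe sets are not comparable, so levels are compared between lines and not between genes.

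Proteins that enter the secretory pathway fold in the ER lumen with the help of BiP (HSPA5) and its J-domain partners, of disulfide isomerases and, for glycoproteins, of calnexin and calreticulin. Misfolded proteins are returned to the cytosol and degraded, which is ERAD. When folding demand exceeds capacity, the sensors IRE1 (ERN1), PERK (EIF2AK3) and ATF6 start the unfolded protein response: IRE1 splices the mRNA of XBP1, ATF6 is cleaved to a transcription factor, and PERK phosphorylates eIF2alpha and so raises ATF4. Active ATF6 and spliced XBP1 act on ER stress response elements of chaperone promoters. Secretory epithelia such as the prostate carry a high ER load, and androgen is known to act on IRE1 and XBP1 signalling in prostate cancer cells.

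Promoters are shown because the members that stood high together in VCaP include genes with known stress elements. The patterns of 3 elements were searched on both strands in the 250 bases before each start site (RefSeq, GRCh38.p14), with no mismatch allowed: ERSE as CCAAT and CCACG with 9 bases between them, ERSE-II as ATTGG and CCACG with 1 base between them, and the core of the unfolded protein response element, UPRE, as TGACGTGG. All 3 can share the letters CCACG or their complement, and in HYOU1 an ERSE-II and a UPRE core overlapped. Of 40 members with a window in the table (not the same 40 as those with a probe set), 8 (20%) held ERSE, against 0.0916% of 27305 genes. ERSE-II was in 3 members (7.5%), against 0.0659% of genes, and the UPRE core in 4 (10%), against 0.78%. The list holds genes known as targets of the unfolded protein response, so these shares describe it and test nothing. The HSPA5 stretch is given whole (chr9:125241344-125241593, minus strand), with the ERSE in capitals at bases -66 to -48 from the start site.
HSPA5: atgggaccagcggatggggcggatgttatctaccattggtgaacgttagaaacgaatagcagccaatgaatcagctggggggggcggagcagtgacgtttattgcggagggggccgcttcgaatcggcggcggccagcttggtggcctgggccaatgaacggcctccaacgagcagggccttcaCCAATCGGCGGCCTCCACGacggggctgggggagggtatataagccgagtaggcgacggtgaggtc
The next stretches belong to 4 members with high differences in VCaP. They hold an ERSE-II of HYOU1 (chr11:119057365-119057405, minus strand) and of SDF2L1 (chr22:21642099-21642139, plus strand), and the ERSE of CRELD2 (chr22:49918539-49918587, plus strand) and of PDIA6 (chr2:10812838-10812886, minus strand), the motif in capitals.
HYOU1: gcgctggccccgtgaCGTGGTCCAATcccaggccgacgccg
SDF2L1: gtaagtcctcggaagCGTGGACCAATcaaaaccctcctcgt
CRELD2: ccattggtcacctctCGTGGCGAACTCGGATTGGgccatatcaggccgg
PDIA6: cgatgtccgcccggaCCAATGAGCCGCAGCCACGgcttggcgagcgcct
The following 3 hold a motif too, in members with a difference near 0 in VCaP: HERPUD1 with an ERSE-II (chr16:56932010-56932050, plus strand), XBP1 (chr22:28800588-28800636, minus strand) and ERO1B (chr1:236282168-236282208, minus strand) with an ERSE, again in capitals.
HERPUD1: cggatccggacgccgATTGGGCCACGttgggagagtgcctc
XBP1: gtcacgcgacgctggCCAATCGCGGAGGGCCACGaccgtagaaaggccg
ERO1B: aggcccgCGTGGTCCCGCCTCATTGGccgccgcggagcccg
The 10 tested members with an ERSE or ERSE-II had a median difference in VCaP of 0.81 (range -0.053 to 1.54), and the 26 with neither had 0.53 (range -1.24 to 2.14). The other 4 tested members had no window in the table and are in neither group. They were PDIA3, SEC24D, DERL3 and DERL1, with VCaP differences of 2.45, 1.76, 0.88 and 0.40. The ranges of the 10 and of the 26 overlap, and a window without an exact match says only that those letters were not found there.

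PRKDC was read before the members, as the check of the labels. It stood at 6.76 (C4-2B), 8.08 (DU145), 7.17 (PC3) and 9.18 (VCaP) with DNAPK siRNA, against 9.29 (C4-2B), 9.17 (DU145), 9.17 (PC3) and 9.80 (VCaP) with non-targeting siRNA, which left PRKDC at 17.4%, 47.2%, 25.1% and 65% of the control signal in C4-2B, DU145, PC3 and VCaP. PRKDC was lower in each of the 4 lines, least so in VCaP. Among epithelial genes, the adhesion genes EPCAM and CDH1 read at least 8.84 on every array. The keratin genes KRT8 and KRT18 read between 3.58 and 5.47 on their own probe sets. ERG stood at 8.65 with DNAPK siRNA and 8.57 with non-targeting siRNA in VCaP, while no array of another line exceeded 3.56. KLK3, which encodes PSA, read 10.24 and 10.12 in C4-2B but 4.75 and 4.46 in VCaP cells, which are known to make PSA. VIM was high in DU145 (8.15 and 8.19) and PC3 (7.22 and 7.82). Of the markers of leukocytes, fibroblasts and endothelium, 5 of 6 measured lay below the filter level of 2.52 on average, and COL1A1 read 3.63 to 5.06.

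Across the 4 lines together, no member was called. Neither was PRKDC, the target of the siRNA (mean -1.56, limma, unadjusted p = 0.00084, adjusted p = 0.687). With its target uncalled, this fit cannot show that the members did not respond. The limma fit with the line as a block called none of the 16767 genes (0%) at a threshold of 0.05 on the adjusted p, with 708 genes higher (4.22%) and 500 lower (2.98%) at an unadjusted p under 0.05. Among the 40 members, 1 was higher at that unadjusted level and 0 were lower. The mean over lines lay above 0 for 30 members (75%), against 56.4% of all genes, and the median of the members' mean differences was 0.15, against 0.027 for all genes. Without VCaP the median was -0.026 and 15 of 40 members lay above 0. The mean of the other 3 lines was 0.084 for MANF, 0.11 for DNAJB11, 0.13 for SDF2L1, 0.017 for PDIA4 and 0.15 for DERL3. The members' signals with DNAPK siRNA overlapped those with non-targeting siRNA in all 40, while 0.692% of all genes had groups that did not overlap.

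The single lines did not look alike. In VCaP, 33 of the 40 members lay above 0, against 49.6% of all genes there, and 11 were past 1 (27.5%), against 1.28% of all genes. One member was past -1, against 2.42% of all genes. In C4-2B only 5 of 40 lay above 0, against 57.1% of all genes, and none was past 1 in either direction (0.245% of genes higher and 0.34% lower). DU145 had 28 of 40 above 0, against 56.9%, and PC3 19 of 40, against 55.5%, again with no member past 1 (DU145 0.304% of genes higher and 0.817% lower, PC3 0.531% and 0.543%). Past 0.5, C4-2B had 0 members higher and 4 lower, against 4.51% and 3.75% of all genes, and DU145 had 3 and 1, against 5.88% and 5.55%. PC3 had 0 higher and 2 lower, against 6.08% and 5.21%, and VCaP 23 and 1, against 10.5% and 12.8%. Median differences of the members were -0.14 (C4-2B), 0.092 (DU145), -0.010 (PC3) and 0.65 (VCaP), where all genes had 0.042, 0.045, 0.037 and -0.0035. With 1 array per siRNA in a line, none of these values has a replicate check. Effects of the siRNA and variation from culture to culture cannot be told apart. In these bulk RNA samples, fewer expressing cells and less RNA per cell cannot be told apart either. A difference below 0 in C4-2B together with one above 0 in VCaP was found in 29 members (72.5%), against 20.2% of all genes.

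**Figure D1:**
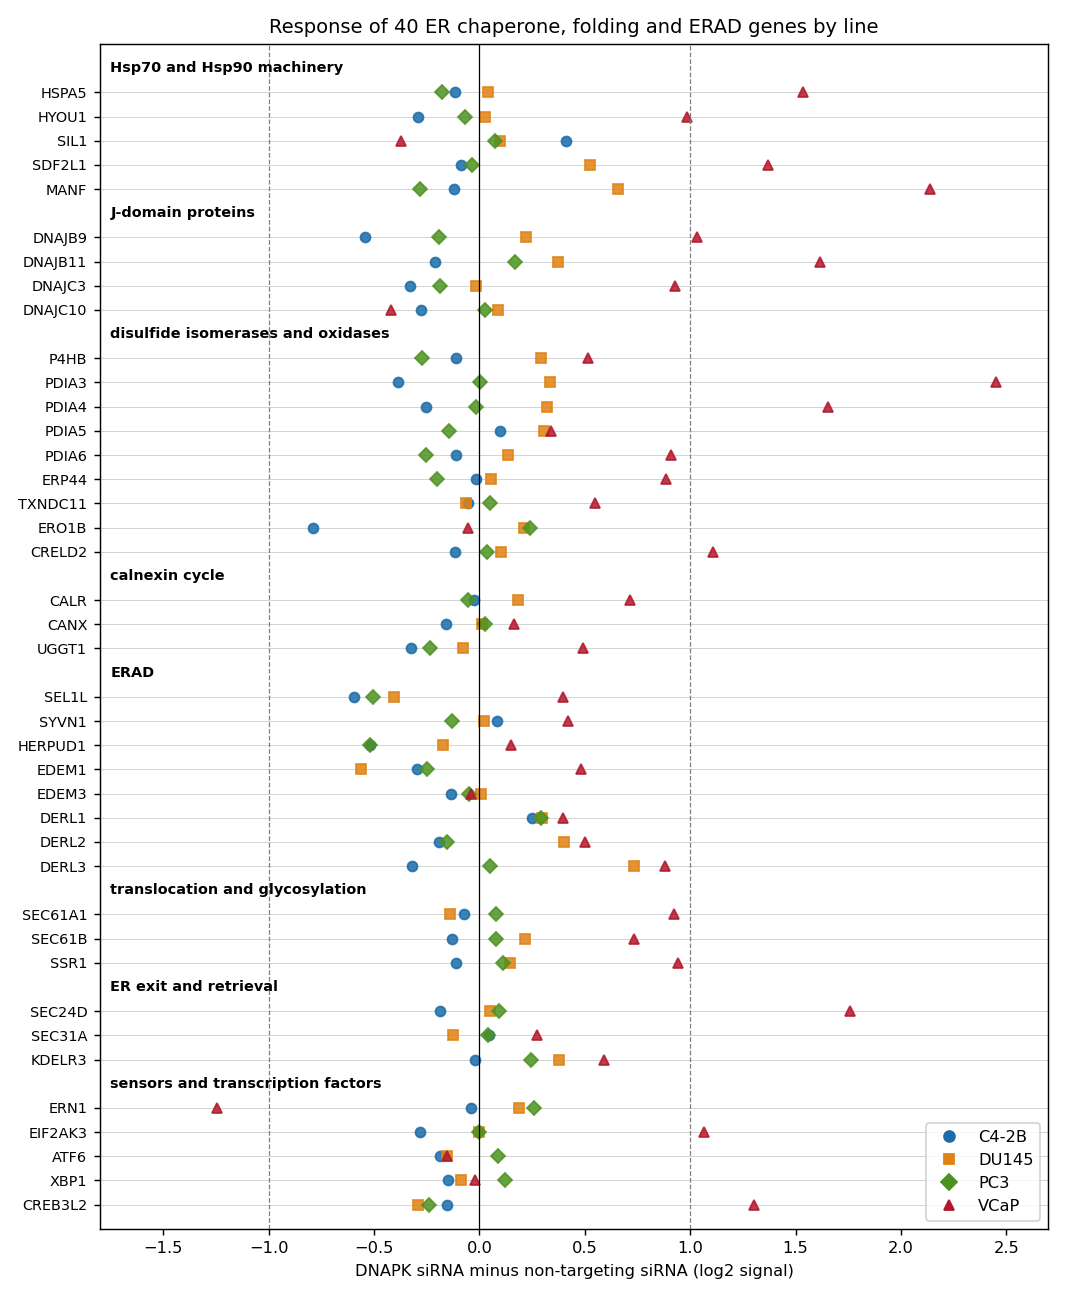
Difference between DNAPK siRNA and non-targeting siRNA (log2 signal, horizontal axis) for each of the 40 members, grouped by role, with 1 point per line (blue circles C4-2B, orange squares DU145, green diamonds PC3, red triangles VCaP; 1 pair of arrays each) and dashed lines at -1 and 1. The VCaP points reach 2.45 at PDIA3 and lie apart from the other lines for most chaperones, while ERN1 stands at -1.24.

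**Figure D2:**
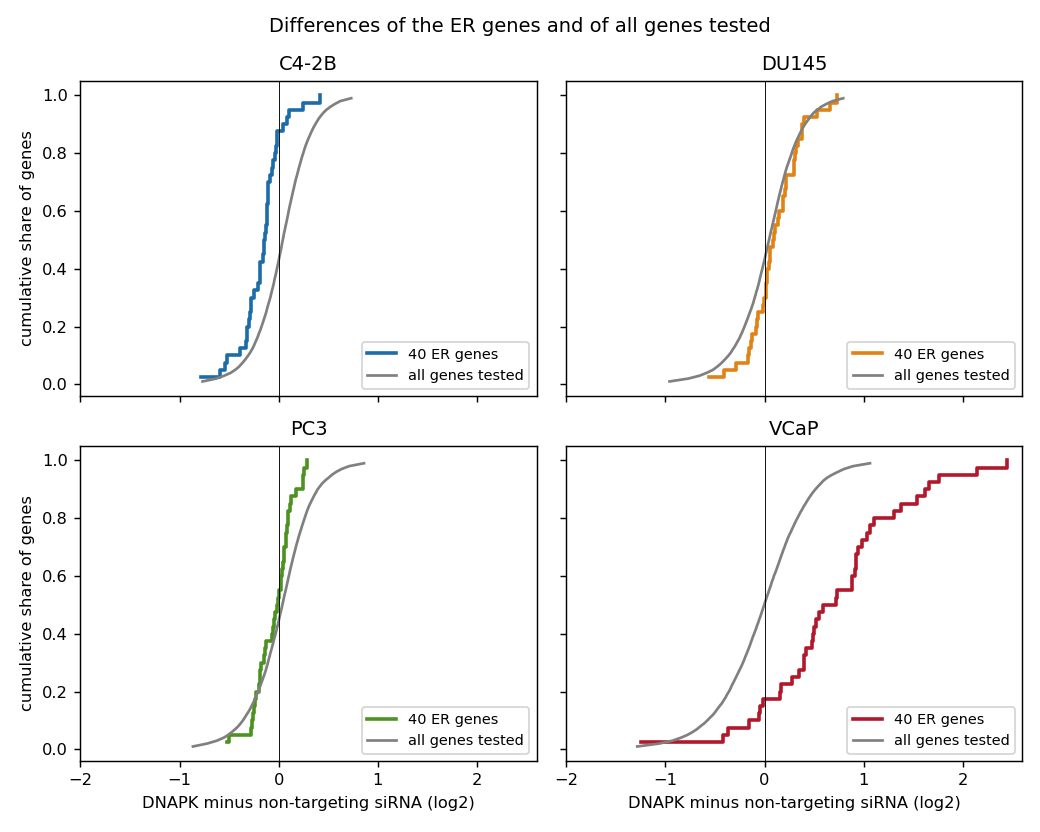
Cumulative share of genes (vertical axis) by difference between DNAPK siRNA and non-targeting siRNA (log2, horizontal axis) in each line, for the 40 members (coloured steps) and all 16767 genes tested (grey, from the 1st to the 99th percentile). The members' curve lies left of the grey curve in C4-2B (medians -0.14 and 0.042) and far to its right in VCaP (0.65 and -0.0035).

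Whether VCaP differed from the other lines was tested with limma on the 4 paired differences, VCaP against the mean of the other 3, with 2 residual degrees of freedom before the variance prior. Each other line was also set against the rest, and there the spread included VCaP. The members' differences had an SD of 0.72 in VCaP, against 0.22 (C4-2B), 0.26 (DU145) and 0.19 (PC3). Over all genes the SD was also widest in VCaP, at 0.46, against 0.29 (C4-2B), 0.33 (DU145) and 0.33 (PC3). Counts from those tests and from the VCaP test are therefore not comparable. VCaP has 1 pair of arrays, so the spread in the VCaP test comes from the other lines and holds no variation of VCaP itself. That fit called 0 of 16767 genes, and the smallest adjusted p of a member was 0.137. At an unadjusted p under 0.05, 23 of 40 members stood higher in VCaP (57.5%), against 5.66% of all genes, and 1 stood lower, against 8.89%. Without C4-2B or without PC3 the limma test again called 0 genes. Without DU145, where the spread rested on C4-2B and PC3 alone (1 residual degree of freedom), 16 genes passed, among them MANF (2.34) and PDIA3 (2.64). Each of the other lines set against the rest also gave 0 calls in that limma test, and 0 members stood higher at an unadjusted p under 0.05 in C4-2B, DU145 or PC3 (1.07%, 2.19% and 1.96% of all genes). At that level 1 member stood lower in C4-2B, against 0.817% of all genes, and 0 in DU145 and PC3, against 2.43% and 1.66%. The member was ERO1B (-0.92, 95% interval -1.64 to -0.20, limma, adjusted p = 0.9999).

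Among the BiP system and its partners, 4 of the 5 tested genes were higher with DNAPK siRNA in VCaP and near 0 or slightly lower in C4-2B and PC3. HSPA5, which encodes BiP, the main luminal Hsp70, read 11.15 (C4-2B), 10.47 (DU145), 10.17 (PC3) and 11.09 (VCaP) with DNAPK siRNA, against 11.27 (C4-2B), 10.43 (DU145), 10.34 (PC3) and 9.56 (VCaP) with non-targeting siRNA. All but 1 of these 8 signals lay between 10.17 and 11.27, and the VCaP control stood below them. The VCaP difference was 1.54 (2.90-fold), the mean over lines 0.32 ± 0.81 (SD, n = 4 lines; limma, adjusted p = 0.779), and VCaP exceeded the other 3 lines by 1.62 (95% interval 1.06 to 2.18, adjusted p = 0.137). HYOU1, a large Hsp70-like exchange factor for BiP, read 9.45 (C4-2B), 8.399 (DU145), 8.56 (PC3) and 8.96 (VCaP) with DNAPK siRNA, against 9.74 (C4-2B), 8.37 (DU145), 8.63 (PC3) and 7.97 (VCaP) with non-targeting siRNA, again with the VCaP control lowest. SDF2L1, a cofactor of luminal J-domain proteins, read 7.33 (C4-2B), 5.19 (DU145), 5.48 (PC3) and 5.72 (VCaP) with DNAPK siRNA, against 7.41 (C4-2B), 4.66 (DU145), 5.51 (PC3) and 4.35 (VCaP) with non-targeting siRNA. It was higher with DNAPK siRNA in DU145 (0.53) and VCaP (1.37) and its mean difference was 0.44 ± 0.68 (adjusted p = 0.693). MANF, a stress-induced secreted protein that binds BiP, stood at 6.92 (C4-2B), 5.38 (DU145), 5.63 (PC3) and 6.50 (VCaP) with DNAPK siRNA, against 7.04 (C4-2B), 4.72 (DU145), 5.91 (PC3) and 4.36 (VCaP) with non-targeting siRNA. Its difference was 2.14 in VCaP (4.41-fold) and 0.66 in DU145 but -0.28 in PC3, with a mean of 0.60 ± 1.11 (adjusted p = 0.722). SIL1, a nucleotide exchange factor of BiP, went the other way in VCaP, with 5.83 (C4-2B), 4.97 (DU145), 4.75 (PC3) and 4.74 (VCaP) with DNAPK siRNA, against 5.42 (C4-2B), 4.87 (DU145), 4.68 (PC3) and 5.11 (VCaP) with non-targeting siRNA. HSP90B1 (GRP94, the luminal Hsp90) was measured by a probe set that also names the microRNA gene MIR3652, and read 11.45 (C4-2B), 10.84 (DU145), 10.91 (PC3) and 11.35 (VCaP) with DNAPK siRNA, against 11.50 (C4-2B), 10.70 (DU145), 10.999 (PC3) and 10.79 (VCaP) with non-targeting siRNA. Its difference of 0.56 in VCaP was the highest of the 4 lines.

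The J-domain proteins, which stimulate BiP, split in VCaP. DNAJB11 (ERdj3) read 7.87 (C4-2B), 7.47 (DU145), 7.47 (PC3) and 7.68 (VCaP) with DNAPK siRNA, against 8.08 (C4-2B), 7.10 (DU145), 7.30 (PC3) and 6.07 (VCaP) with non-targeting siRNA, a VCaP difference of 1.62 and a mean of 0.49 ± 0.79 (adjusted p = 0.701). DNAJB9 (ERdj4) read 6.21 (C4-2B), 5.09 (DU145), 4.99 (PC3) and 5.66 (VCaP) with DNAPK siRNA, against 6.75 (C4-2B), 4.87 (DU145), 5.18 (PC3) and 4.63 (VCaP) with non-targeting siRNA, and its difference was -0.54 in C4-2B and 1.03 in VCaP. DNAJC3 (P58IPK, which also restrains PERK) read 8.73 (C4-2B), 7.56 (DU145), 7.75 (PC3) and 7.34 (VCaP) with DNAPK siRNA, against 9.06 (C4-2B), 7.58 (DU145), 7.93 (PC3) and 6.42 (VCaP) with non-targeting siRNA. In each of these 3 genes the VCaP control was the lowest of the 8 arrays. DNAJC10 (ERdj5), a disulfide reductase that serves ERAD, had its lowest signal on the VCaP array with DNAPK siRNA instead: it read 9.09 (C4-2B), 9.15 (DU145), 9.05 (PC3) and 8.09 (VCaP) with DNAPK siRNA, against 9.37 (C4-2B), 9.07 (DU145), 9.03 (PC3) and 8.51 (VCaP) with non-targeting siRNA.

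**Figure D3:**
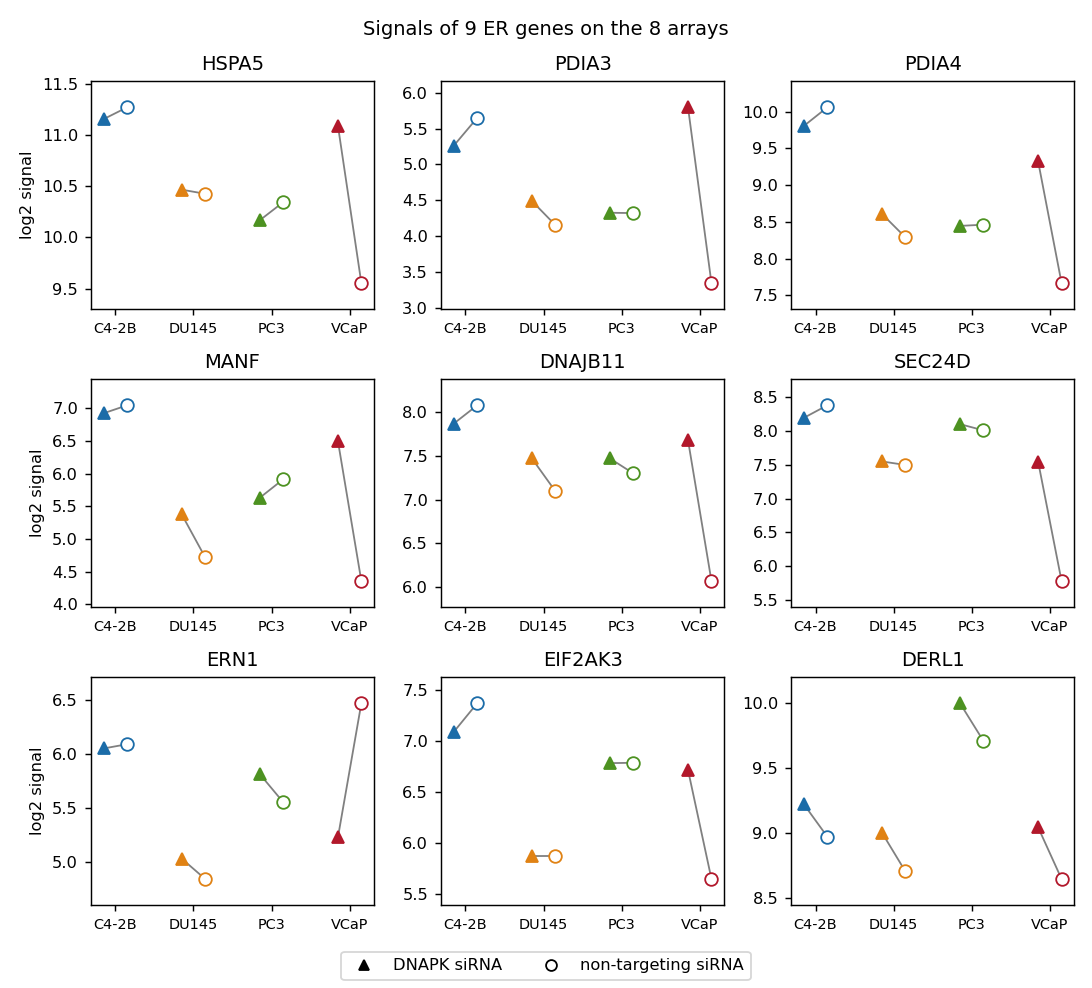
Log2 signal (vertical axis, own scale in each panel) of 9 members on the 8 arrays, with DNAPK siRNA (filled triangles) left of non-targeting siRNA (open circles) in each line. HSPA5, PDIA3, PDIA4, MANF, DNAJB11, SEC24D and EIF2AK3 have their lowest circle in VCaP, ERN1 its highest, and DERL1 lies higher with DNAPK siRNA in all 4 lines.

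Among the disulfide isomerases and oxidases, the widest difference of the whole list was that of PDIA3 (ERp57), the isomerase that works with calnexin and calreticulin, at 2.45 in VCaP (5.46-fold). It read 5.26 (C4-2B), 4.49 (DU145), 4.33 (PC3) and 5.80 (VCaP) with DNAPK siRNA, against 5.65 (C4-2B), 4.16 (DU145), 4.32 (PC3) and 3.35 (VCaP) with non-targeting siRNA. The VCaP control was the lowest of the 8 arrays and the VCaP array with DNAPK siRNA the highest, while the mean of 0.60 ± 1.27 did not pass (limma, adjusted p = 0.744). The control signal of 3.35 lay near the array medians of 2.94 to 2.99, so the fold value of PDIA3 rests on a low signal. PDIA4 (ERp72) read 9.80 (C4-2B), 8.61 (DU145), 8.44 (PC3) and 9.32 (VCaP) with DNAPK siRNA, against 10.06 (C4-2B), 8.29 (DU145), 8.46 (PC3) and 7.67 (VCaP) with non-targeting siRNA, with a VCaP difference of 1.65 and a mean of 0.43 ± 0.85 (adjusted p = 0.740). CRELD2, a stress-induced protein with isomerase activity, stood at 7.24 (C4-2B), 5.57 (DU145), 5.64 (PC3) and 6.25 (VCaP) with DNAPK siRNA, against 7.35 (C4-2B), 5.46 (DU145), 5.61 (PC3) and 5.15 (VCaP) with non-targeting siRNA. PDIA6 (P5), which attenuates IRE1, read 8.43 (C4-2B), 8.38 (DU145), 8.10 (PC3) and 8.78 (VCaP) with DNAPK siRNA, against 8.54 (C4-2B), 8.25 (DU145), 8.35 (PC3) and 7.87 (VCaP) with non-targeting siRNA. ERP44, which retains oxidases and secretory subunits in the early pathway, read 8.89 (C4-2B), 8.31 (DU145), 7.75 (PC3) and 9.31 (VCaP) with DNAPK siRNA, against 8.91 (C4-2B), 8.25 (DU145), 7.95 (PC3) and 8.42 (VCaP) with non-targeting siRNA. These 4 genes shared a VCaP difference of at least 0.88, and in the other lines none of their differences went past 0.32.

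P4HB, the founding disulfide isomerase and the beta subunit of collagen prolyl hydroxylase, read 5.51 (C4-2B), 5.58 (DU145), 5.39 (PC3) and 5.81 (VCaP) with DNAPK siRNA, against 5.62 (C4-2B), 5.29 (DU145), 5.66 (PC3) and 5.29 (VCaP) with non-targeting siRNA. Its differences were -0.11 (C4-2B), 0.29 (DU145), -0.27 (PC3) and 0.52 (VCaP). PDIA5 read 7.64 (C4-2B), 5.68 (DU145), 6.26 (PC3) and 6.56 (VCaP) with DNAPK siRNA, against 7.54 (C4-2B), 5.37 (DU145), 6.403 (PC3) and 6.22 (VCaP) with non-targeting siRNA, with a difference above 0 in C4-2B, DU145 and VCaP. TXNDC11, a thioredoxin-like protein of the ER membrane, read 7.67 (C4-2B), 6.69 (DU145), 6.399 (PC3) and 6.90 (VCaP) with DNAPK siRNA, against 7.73 (C4-2B), 6.75 (DU145), 6.35 (PC3) and 6.35 (VCaP) with non-targeting siRNA. ERO1B, an oxidase that recharges the isomerases, had the lowest difference of any member in C4-2B, at -0.79. Its signals were 5.05 (C4-2B), 4.93 (DU145), 3.93 (PC3) and 5.83 (VCaP) with DNAPK siRNA, against 5.84 (C4-2B), 4.72 (DU145), 3.69 (PC3) and 5.88 (VCaP) with non-targeting siRNA, so its response differed in sign from line to line.

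In the calnexin cycle, which folds and inspects glycoproteins, CALR (calreticulin) read 11.39 (C4-2B), 10.93 (DU145), 11.17 (PC3) and 11.63 (VCaP) with DNAPK siRNA, against 11.41 (C4-2B), 10.75 (DU145), 11.23 (PC3) and 10.91 (VCaP) with non-targeting siRNA. CANX (calnexin) read 10.15 (C4-2B), 10.12 (DU145), 9.80 (PC3) and 10.62 (VCaP) with DNAPK siRNA, against 10.31 (C4-2B), 10.11 (DU145), 9.78 (PC3) and 10.46 (VCaP) with non-targeting siRNA, a gap of at most 0.17 between the arrays of any line. UGGT1, which re-glucosylates misfolded glycoproteins, read 8.53 (C4-2B), 8.50 (DU145), 8.47 (PC3) and 8.80 (VCaP) with DNAPK siRNA, against 8.86 (C4-2B), 8.58 (DU145), 8.70 (PC3) and 8.31 (VCaP) with non-targeting siRNA. The VCaP differences were 0.72, 0.17 and 0.49, and each was the highest of the 4 lines.

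Of the 8 tested ERAD genes, 2 lay above 0 in C4-2B, as in PC3, 5 in DU145 and 7 in VCaP. The shares of all genes above 0 were 57.1% (C4-2B), 55.5% (PC3), 56.9% (DU145) and 49.6% (VCaP). SEL1L, the adaptor of the HRD1 ubiquitin ligase, was lower with DNAPK siRNA in C4-2B, DU145 and PC3 and higher in VCaP. It read 8.47 (C4-2B), 7.87 (DU145), 7.76 (PC3) and 8.70 (VCaP) with DNAPK siRNA, against 9.06 (C4-2B), 8.27 (DU145), 8.26 (PC3) and 8.30 (VCaP) with non-targeting siRNA, with a mean of -0.28 ± 0.46 (adjusted p = 0.734), or -0.50 without VCaP. HERPUD1, which organises the same ligase complex, read 8.92 (C4-2B), 7.05 (DU145), 6.70 (PC3) and 8.17 (VCaP) with DNAPK siRNA, against 9.44 (C4-2B), 7.22 (DU145), 7.22 (PC3) and 8.02 (VCaP) with non-targeting siRNA, and its differences were -0.52 in both C4-2B and PC3. EDEM1, a mannosidase-like protein that marks glycoproteins for ERAD, read 6.98 (C4-2B), 6.76 (DU145), 6.55 (PC3) and 6.67 (VCaP) with DNAPK siRNA, against 7.27 (C4-2B), 7.32 (DU145), 6.80 (PC3) and 6.19 (VCaP) with non-targeting siRNA. SEL1L, HERPUD1 and EDEM1 were below 0 in 3 lines and above 0 in VCaP, as were DNAJC3, UGGT1, EIF2AK3 and CREB3L2. SYVN1, the HRD1 ligase itself, read 6.15 (C4-2B), 5.03 (DU145), 5.91 (PC3) and 6.28 (VCaP) with DNAPK siRNA, against 6.07 (C4-2B), 5.01 (DU145), 6.04 (PC3) and 5.86 (VCaP) with non-targeting siRNA. EDEM3, a relative of EDEM1, read 7.97 (C4-2B), 7.58 (DU145), 7.57 (PC3) and 7.66 (VCaP) with DNAPK siRNA, against 8.11 (C4-2B), 7.57 (DU145), 7.62 (PC3) and 7.70 (VCaP) with non-targeting siRNA, with differences between -0.13 and 0.010.

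DERL1, a derlin of the ERAD membrane machinery, was the one member with a difference above 0 in all 4 lines (11.5% of all genes) and none lay below 0 in all 4 (5.89% of all genes). It read 9.22 (C4-2B), 9.001 (DU145), 9.997 (PC3) and 9.04 (VCaP) with DNAPK siRNA, against 8.97 (C4-2B), 8.70 (DU145), 9.71 (PC3) and 8.64 (VCaP) with non-targeting siRNA. Its differences spanned 0.25 to 0.40, and the mean of 0.31 ± 0.063 had a 95% interval of 0.060 to 0.56 (limma, unadjusted p = 0.0216, adjusted p = 0.687). DERL2 read 7.97 (C4-2B), 8.05 (DU145), 7.75 (PC3) and 7.44 (VCaP) with DNAPK siRNA, against 8.16 (C4-2B), 7.65 (DU145), 7.91 (PC3) and 6.94 (VCaP) with non-targeting siRNA. DERL3 read 5.87 (C4-2B), 4.61 (DU145), 3.75 (PC3) and 5.003 (VCaP) with DNAPK siRNA, against 6.19 (C4-2B), 3.88 (DU145), 3.70 (PC3) and 4.12 (VCaP) with non-targeting siRNA, with differences of 0.73 in DU145 and 0.88 in VCaP but -0.32 in C4-2B. EDEM2 had 2 probe sets, both shared with a metallothionein pseudogene, and the one with the higher mean read 5.85 (C4-2B), 5.70 (DU145), 7.50 (PC3) and 6.45 (VCaP) with DNAPK siRNA, against 5.64 (C4-2B), 6.01 (DU145), 7.18 (PC3) and 6.14 (VCaP) with non-targeting siRNA.

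For entry into the ER, SEC61A1, the pore of the translocon, read 10.17 (C4-2B), 8.94 (DU145), 9.71 (PC3) and 9.62 (VCaP) with DNAPK siRNA, against 10.24 (C4-2B), 9.08 (DU145), 9.63 (PC3) and 8.70 (VCaP) with non-targeting siRNA. SEC61B, its beta subunit, stood at 8.45 (C4-2B), 7.67 (DU145), 7.53 (PC3) and 7.76 (VCaP) with DNAPK siRNA, against 8.57 (C4-2B), 7.46 (DU145), 7.45 (PC3) and 7.03 (VCaP) with non-targeting siRNA. SSR1, a subunit of the translocon-associated TRAP complex, read 10.33 (C4-2B), 9.78 (DU145), 10.14 (PC3) and 8.88 (VCaP) with DNAPK siRNA, against 10.44 (C4-2B), 9.63 (DU145), 10.02 (PC3) and 7.93 (VCaP) with non-targeting siRNA. All 3 had the VCaP control as the lowest array, with VCaP differences of 0.92, 0.73 and 0.94. OSTC, an oligosaccharyltransferase subunit seen through a probe set shared with a pseudogene, read 6.27 (C4-2B), 6.21 (DU145), 5.88 (PC3) and 6.74 (VCaP) with DNAPK siRNA, against 7.01 (C4-2B), 6.02 (DU145), 6.402 (PC3) and 6.48 (VCaP) with non-targeting siRNA, and its difference was -0.74 in C4-2B and -0.53 in PC3.

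At ER exit, SEC24D, a cargo adaptor of the COPII coat, had the highest difference among the transport genes, 1.76 in VCaP (3.39-fold). It read 8.19 (C4-2B), 7.55 (DU145), 8.10 (PC3) and 7.54 (VCaP) with DNAPK siRNA, against 8.38 (C4-2B), 7.50 (DU145), 8.01 (PC3) and 5.78 (VCaP) with non-targeting siRNA. The VCaP control, at 5.78, stood apart from the next lowest array, at 7.50. SEC31A, of the outer coat, read 8.80 (C4-2B), 8.73 (DU145), 8.95 (PC3) and 9.14 (VCaP) with DNAPK siRNA, against 8.76 (C4-2B), 8.85 (DU145), 8.90 (PC3) and 8.86 (VCaP) with non-targeting siRNA, with differences of -0.12 to 0.28. KDELR3, a receptor that returns chaperones from the Golgi, read 5.503 (C4-2B), 7.12 (DU145), 6.72 (PC3) and 3.25 (VCaP) with DNAPK siRNA, against 5.52 (C4-2B), 6.74 (DU145), 6.48 (PC3) and 2.65 (VCaP) with non-targeting siRNA. Its mean of 0.30 ± 0.26 had a 95% interval of -0.010 to 0.61 (adjusted p = 0.687), and its VCaP signals stood near the filter level.

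Among the sensors, ERN1 (IRE1alpha) was the member with the lowest difference in VCaP, at -1.24, opposite to the chaperones. It read 6.05 (C4-2B), 5.03 (DU145), 5.81 (PC3) and 5.23 (VCaP) with DNAPK siRNA, against 6.09 (C4-2B), 4.84 (DU145), 5.55 (PC3) and 6.47 (VCaP) with non-targeting siRNA, and the contrast of VCaP with the other 3 lines was -1.38 (95% interval -1.96 to -0.79, adjusted p = 0.156). EIF2AK3 (PERK) read 7.09 (C4-2B), 5.87 (DU145), 6.78 (PC3) and 6.72 (VCaP) with DNAPK siRNA, against 7.37 (C4-2B), 5.87 (DU145), 6.79 (PC3) and 5.65 (VCaP) with non-targeting siRNA, a VCaP difference of 1.07 against -0.28 in C4-2B and values near 0 in DU145 and PC3. CREB3L2, a membrane-bound factor of the ATF6 kind that drives secretory capacity, stood at 7.19 (C4-2B), 5.995 (DU145), 6.67 (PC3) and 6.66 (VCaP) with DNAPK siRNA, against 7.34 (C4-2B), 6.28 (DU145), 6.91 (PC3) and 5.36 (VCaP) with non-targeting siRNA. Only its VCaP pair lay above 0, by 1.30, and the contrast of VCaP with the other lines was 1.53 (95% interval 0.99 to 2.07, adjusted p = 0.137). ATF6 read 7.99 (C4-2B), 7.59 (DU145), 8.99 (PC3) and 8.21 (VCaP) with DNAPK siRNA, against 8.17 (C4-2B), 7.74 (DU145), 8.90 (PC3) and 8.37 (VCaP) with non-targeting siRNA. XBP1 read 8.13 (C4-2B), 6.92 (DU145), 7.12 (PC3) and 8.43 (VCaP) with DNAPK siRNA, against 8.28 (C4-2B), 7.01 (DU145), 7.002 (PC3) and 8.45 (VCaP) with non-targeting siRNA, within 0.15 between the arrays of every line; the arrays give no separate value for its spliced form. ERN1 and EIF2AK3 therefore parted in VCaP while ATF6 and XBP1 had differences of -0.16 and -0.020 there.

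**Figure D4:**
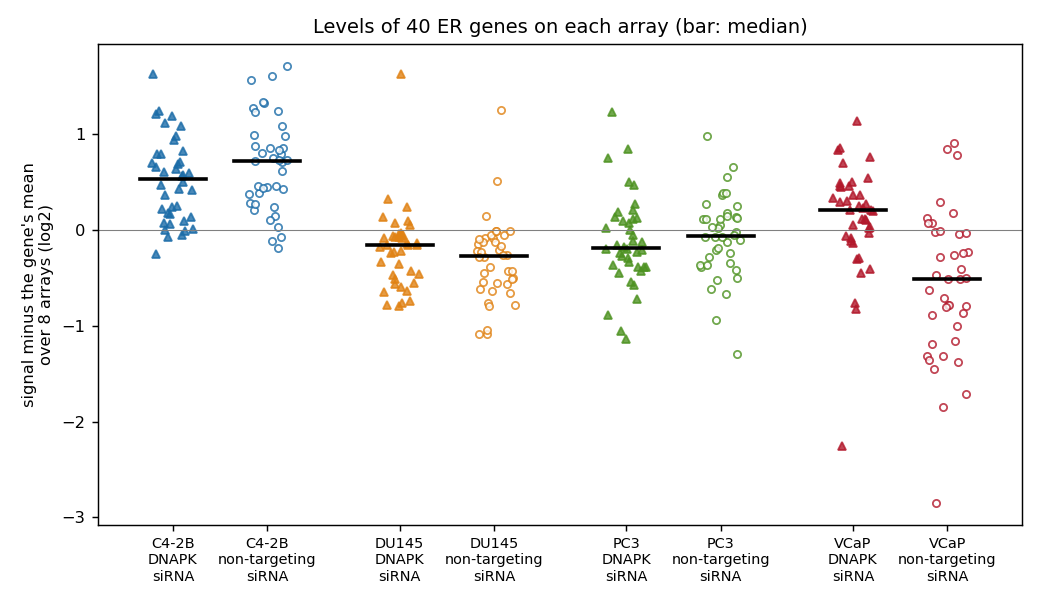
Signal of each of the 40 members minus its own mean over the 8 arrays (log2, vertical axis), with DNAPK siRNA (filled triangles) left of non-targeting siRNA (open circles) in each line and the median as a bar. Medians were 0.20 on the VCaP array with DNAPK siRNA and -0.52 on the VCaP control array, and 0.53 and 0.72 on the C4-2B arrays.

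The plot of centred levels by array sets the control arrays beside each other. The VCaP control array was the lowest of the 8 for 23 of 40 members (57.5%), against 15.7% of all genes, and the lowest of the 4 controls for 24 (60%), against 28%. On the arrays with DNAPK siRNA, VCaP was the lowest of the 4 lines for 7 members (17.5%), against 30.2% of all genes, and these were SIL1, DNAJC3, DNAJC10, DERL2, SSR1, SEC24D and KDELR3. The C4-2B control array was the highest of the 8 for 23 members, against 9.31% of all genes. For 18 members the lowest array was the VCaP control and the highest the C4-2B control (45%), against 1.73% of all genes. The VCaP array with DNAPK siRNA was the highest of the 8 for 8 members and the lowest for 1, against 14.8% and 16.5% of all genes. A second VCaP control was not among the arrays, so a change by DNAPK siRNA and a low state of that control culture cannot be told apart.

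Standing levels, the mean of the 2 arrays of a line, put C4-2B highest for 33 of 40 members (82.5%), against 26% of all genes. DU145 was lowest for 18, VCaP for 11, PC3 for 10 and C4-2B for 1 (23.5%, 29.2%, 25.4% and 21.9% of all genes). These means include the arrays with DNAPK siRNA, and the control arrays alone gave another order at the low end. There VCaP was lowest for 24 members, PC3 for 8, DU145 for 7 and C4-2B for 1 (28%, 24.6%, 24.3% and 23.1% of all genes). C4-2B was the highest control for 30 members (75%), against 25.2% of all genes. A limma F test over the 4 lines, with treatment as a covariate, called 27 of 40 members (67.5%), close to the 62.7% of all genes it called, so this count is near the background. In pairwise contrasts adjusted over all genes and 6 pairs, C4-2B was higher than DU145 for 20 members and lower for 1, against 17.3% and 17.7% of all genes. C4-2B was higher than PC3 for 15 and lower for 3, against 17.8% and 18.5%, and higher than VCaP for 21 and lower for 0, against 18.2% and 16.9%. DU145 was higher than PC3 for 1 and lower for 4 (15.5% and 16.4% of all genes), and higher than VCaP for 4 and lower for 6 (21% and 19.6%). PC3 was higher than VCaP for 7 and lower for 5 (21% and 19.1%). Since the 2 arrays of a line carry different siRNAs, the spread in this test includes the unequal response of lines. Without C4-2B, 11 members and 8180 of all genes were called, against 27 members and 10511 genes with all 4 lines. Leaving out C4-2B thus lowered the members' count more steeply than that of all genes. Without VCaP the counts were 32 members and 9386 genes.

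Several orders of level were clear beyond that spread. SDF2L1 averaged 7.37 in C4-2B, against 5.49 in PC3, the next line (limma, adjusted p = 0.00389), and PC3, VCaP and DU145 (5.04 and 4.93 for the last pair) were not called apart from their neighbours. CRELD2, DERL3 and TXNDC11 had the same form, with C4-2B above the next line (adjusted p = 0.00409, 0.00627 and 0.00658) and the neighbours among the other 3 not called apart. HERPUD1 stood at 9.18 in C4-2B, 8.10 in VCaP and 7.14 in DU145, each step called (adjusted p = 0.00500 and 0.00883), and PC3 (6.96) was not called apart from DU145. XBP1 stood at 8.44 in VCaP and 8.21 in C4-2B, not called apart (adjusted p = 0.299), and both exceeded PC3 (7.06) and DU145 (6.97), with adjusted p = 0.00109 for the step from C4-2B to PC3. ERO1B was likewise higher in VCaP (5.86) and C4-2B (5.45) than in PC3 (3.81), the lowest line (adjusted p = 0.0186 against DU145 at 4.83). DERL1 was highest in PC3, at 9.85, against 9.09 in C4-2B (adjusted p = 0.00632), and ATF6 too, at 8.94, against 8.29 in VCaP (adjusted p = 0.0150). KDELR3 had the widest range of any member, 3.98: DU145 (6.93) and PC3 (6.60) were not called apart, C4-2B stood lower at 5.51 (adjusted p = 0.00323) and VCaP at 2.95 (adjusted p = 5.05e-05). P4HB, UGGT1, SEC31A and PDIA6 stood within 0.26 of each other across the lines, with no F test call.

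Other genes of the same pathways had smaller medians in VCaP, a difference that was not tested. Of all genes, 49.6% lay above 0 in VCaP and 1.28% past 1, the shares to set beside the counts that follow. Of 18 tested folding enzymes outside the list (20 chosen), 12 lay above 0 in VCaP with a median of 0.13 and none past 1. The largest mean differences there were those of PDIA2 (0.30 ± 0.25), the collagen chaperone SERPINH1 (0.26 ± 0.32) and TXNDC12 (0.23 ± 0.11). Of 20 tested ERAD genes (22 chosen), 12 lay above 0 in VCaP, median 0.17, led over the lines by SELENOS (0.25 ± 0.41), TMUB1 (0.23 ± 0.21) and RNF5 (0.21 ± 0.16). SELENOS, which links derlins to the ATPase p97, read 5.28 with DNAPK siRNA and 4.43 with non-targeting siRNA in VCaP. Of 21 tested translocon, signal peptidase and glycosylation genes (24 chosen), 17 lay above 0 in VCaP, median 0.25, with SSR3 (-0.32 ± 0.54), SRPRA (0.29 ± 0.10) and SPCS2 (0.28 ± 0.35) at the head. SSR3, another TRAP subunit, was below 0 in C4-2B, DU145 and PC3 (-0.56, -0.39 and -0.79) and 0.45 in VCaP. Of 18 ER exit and retrieval genes, 17 lay above 0 in VCaP, median 0.25, led by SAR1B (0.31 ± 0.32), SEC24C (0.27 ± 0.15) and SURF4 (0.21 ± 0.13). Of 15 tested other sensors, factors and proteases (16 chosen), 9 lay above 0 in VCaP, median 0.087. The apoptosis effectors BAK1 (0.51 ± 0.21) and BAX (0.27 ± 0.52) and the CCAAT-binding subunit NFYB (-0.29 ± 0.12) had the largest means in that list. Past 1 in VCaP stood 1 gene of the translocon, signal peptidase and glycosylation list and none of the other lists of this paragraph. In these 5 lists 0 genes were called by limma over the 4 lines. At an unadjusted p under 0.05 in that fit, 3 stood higher and 1 lower, against 4.22% and 2.98% of all genes.

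The mRNAs of genes listed as the PERK and ATF4 arm went the opposite way to most chaperones in VCaP. The activity of PERK itself was not measured. Of the 18 listed genes, all tested, 2 lay above 0 in VCaP, against 49.6% of all genes there. Past -1 stood 11, against 2.42% of all genes, and the median was -1.10. None was past 1, against 1.28% of all genes. In C4-2B the median was -0.43 with 2 of 18 above 0, against 57.1% of all genes, in DU145 0.061 and in PC3 -0.018. In C4-2B 1 gene was past 1 and 2 were past -1, against 0.245% and 0.34% of all genes. In DU145 1 was past -1, against 0.817%. The cystine transporter gene SLC7A11 read 8.47 (C4-2B), 8.41 (DU145), 7.20 (PC3) and 7.82 (VCaP) with DNAPK siRNA, against 9.51 (C4-2B), 8.87 (DU145), 8.02 (PC3) and 10.12 (VCaP) with non-targeting siRNA. CHAC1, which degrades glutathione, read 5.32 (C4-2B), 6.04 (DU145), 5.64 (PC3) and 5.16 (VCaP) with DNAPK siRNA, against 6.63 (C4-2B), 6.06 (DU145), 5.77 (PC3) and 7.03 (VCaP) with non-targeting siRNA, and the stress gene NUPR1 read 9.49 (C4-2B), 5.63 (DU145), 7.68 (PC3) and 9.36 (VCaP) with DNAPK siRNA, against 9.70 (C4-2B), 7.24 (DU145), 7.81 (PC3) and 10.47 (VCaP) with non-targeting siRNA. All 3 had a difference below 0 in each line, but CHAC1 stood at -0.026 in DU145 and NUPR1 at -0.13 in PC3. None was called over the 4 lines (0 of 18 by limma, 7 lower at an unadjusted p under 0.05, against 2.98% of all genes).

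Hypoxia markers stood high beside the chaperones in VCaP. Of 14 tested (16 chosen), 13 lay above 0 there, against 49.6% of all genes, and 9 past 1, against 1.28%, with a median of 1.14. The medians of the other lines were -0.13 (C4-2B), -0.010 (DU145) and -0.19 (PC3). PLOD2, a collagen lysyl hydroxylase, read 8.26 (C4-2B), 10.71 (DU145), 9.49 (PC3) and 9.47 (VCaP) with DNAPK siRNA, against 8.31 (C4-2B), 10.95 (DU145), 9.58 (PC3) and 6.81 (VCaP) with non-targeting siRNA. P4HA1, whose protein pairs with that of P4HB in collagen prolyl hydroxylase, read 9.69 (C4-2B), 9.50 (DU145), 10.38 (PC3) and 10.36 (VCaP) with DNAPK siRNA, against 9.80 (C4-2B), 9.20 (DU145), 10.64 (PC3) and 8.17 (VCaP) with non-targeting siRNA, and the hexokinase gene HK2 read 6.85 (C4-2B), 5.19 (DU145), 6.42 (PC3) and 6.84 (VCaP) with DNAPK siRNA, against 6.78 (C4-2B), 4.81 (DU145), 7.01 (PC3) and 4.97 (VCaP) with non-targeting siRNA. For these genes too the VCaP control was low: it was the lowest of the 8 arrays for 7 of the 14, against 15.7% of all genes. The part of the hypoxia genes, of the PERK and ATF4 arm and of the weak PRKDC depletion in VCaP in the members' values was not tested.

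**Figure D5:**
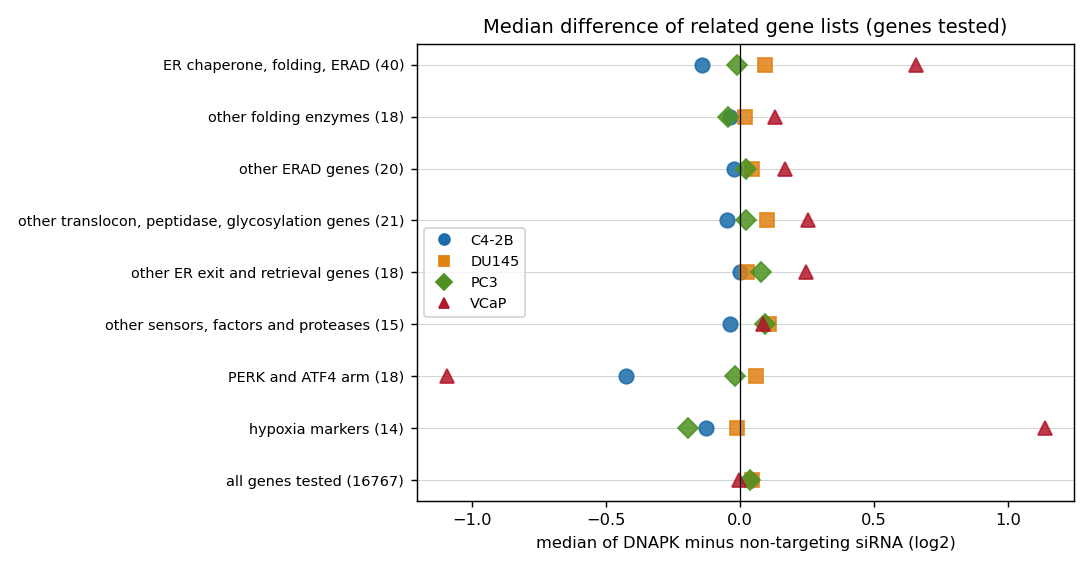
Median difference between DNAPK siRNA and non-targeting siRNA (log2, horizontal axis) of the 40 members, of related gene lists and of all genes tested, with 1 point per line (colours and shapes by line) and the number of genes tested in parentheses. In VCaP the members stand at 0.65, the hypoxia markers at 1.14 and the PERK and ATF4 arm at -1.10, while all genes stand at -0.0035.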

How the data were processed

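RNA of 4 cell lines, each with DNAPK siRNA and with non-targeting siRNA, was measured on 8 Affymetrix arrays. Deposited values are log2 signals made by the authors with oligo and RMA, per the submitters' processing notes; versions and further settings are not given in the sources used here. Array medians lay between 2.94 and 2.99, and the number of arrays limits the precision. Of 53617 probe sets, 23871 named 1 gene symbol, 1842 several and 27904 none here; symbols were updated through Entrez IDs for 22569. The probe set with the highest mean stood for each of 22357 genes, and genes with a mean above the 25th percentile (2.52) were tested.

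Responses were fitted with limma 3.58.1 in R 4.3.3, line as block, with Benjamini-Hochberg adjustment over 16767 genes at 0.05. The labels pair arrays by cell line: deviations from the treatment means correlated at 0.86 to 0.92 within a line and at most at 0.013 between lines. One line was set against the other 3 on paired differences, and levels were compared with treatment as covariate. An exact sign-flip test over 4 lines cannot go below p = 0.125. Nothing says that a line was cultured more than once per siRNA, so p-values measure the spread between lines. Scripts were tested on simulated data. Alternatives were scaling, filter, block, variance prior, probe set choice and leaving out each line. Named were all members, PRKDC, the markers, and the 3 genes of each other list with the largest absolute mean response. The members and lists were chosen with earlier results of these data known.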

Additional observations from a re-analysis of the deposited data

Results flagged for a closer look

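For each of the 40 members, the 4 differences, the 4 levels with DNAPK siRNA and the 4 levels with non-targeting siRNA were searched for a line far from the others, by the 95% critical value of Dixon's ratio. Of 120 such sets, 7 passed, close to the rate of about 1 in 20 that chance passes. The sets share the same 8 arrays and are not independent, so the flags below are descriptions. HSPA5, CREB3L2 and SEC24D stood out by a high difference in VCaP, HSPA5 at 1.54 (next line 0.040), CREB3L2 at 1.30 (next line -0.15) and SEC24D at 1.76 (next line 0.092). ATF6 had a difference of 0.090 in PC3, while the next line was at -0.15. DNAJC10 stood low with DNAPK siRNA in VCaP, at 8.09, where the next line was at 9.05. With non-targeting siRNA, C4-2B stood high for DERL3, at 6.19 (next line 4.12), and for SEL1L, at 9.06 (next line 8.30).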

How the results depend on the processing

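Under array centring, cyclic loess, no filter, another variance prior, other probe set choices and no replicate block, the response over the 4 lines gave 0 called genes, as in the paired fit. Cyclic loess turned CANX to -0.0068. Under the alternatives that kept all lines, members past 1 in VCaP numbered 11 to 12, members with a level that differed between lines 26 to 30, and members above 0 29 to 32. Counts moved by over 1.5 times only when a line was left out. Members with a mean above 0 numbered 15 to 32 (15 without VCaP), and their median ran between -0.026 and 0.25. Of all genes, those whose level differed between lines numbered 8180 without C4-2B, 8720 without DU145, 8399 without PC3 and 9386 without VCaP. With all 4 lines they numbered 10511. Calls of VCaP against the other lines ranged over 0 to 16 genes and 0 to 2 members, 16 and 2 without DU145 and 0 without C4-2B or PC3, and members whose level differed between lines over 11 to 32, the lowest without C4-2B. Leaving out VCaP turned the sign of CREB3L2 (means with 1 line left out -0.23 to 0.30), DNAJB9 (-0.17 to 0.35), DNAJC3 (-0.18 to 0.24), EIF2AK3 (-0.095 to 0.35), ERN1 (-0.36 to 0.14), ERP44 (-0.055 to 0.31), HSPA5 (-0.084 to 0.49), HYOU1 (-0.11 to 0.31), P4HB (-0.029 to 0.23), PDIA3 (-0.016 to 0.93), PDIA6 (-0.077 to 0.31), SEC24D (-0.014 to 0.63), SEC31A (-0.013 to 0.12), SEC61A1 (-0.043 to 0.31), SYVN1 (-0.0070 to 0.18), TXNDC11 (-0.023 to 0.18) and CANX (-0.041 to 0.068). Leaving out C4-2B turned ERO1B (-0.21 to 0.13), SIL1 (-0.066 to 0.19), UGGT1 (-0.21 to 0.061, also without PC3) and XBP1 (-0.087 to 0.0037). None of these means was called. Fewer lines are the construction of these alternatives; other causes were not tested.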

Other observations

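Probe sets outside the comparisons gave further values for 3 members. A probe set of PDIA5 that also names another gene read 5.72 with DNAPK siRNA and 6.28 with non-targeting siRNA in VCaP, the opposite direction to the 6.56 and 6.22 of the probe set used. For SEC31A, a probe set with several symbols read 7.10 with DNAPK siRNA and 6.47 with non-targeting siRNA in VCaP, while its second probe set with 1 symbol lay between 0.97 and 1.51 on every array. The second EDEM2 probe set read 4.23 with DNAPK siRNA and 4.11 with non-targeting siRNA in VCaP. In DU145 it read 5.95 with DNAPK siRNA and 5.83 with non-targeting siRNA, the opposite direction to the 5.70 and 6.01 of the probe set used.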
